A study of Mus musculus with 17 samples.

Results

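Immune checkpoint and costimulation genes were followed in Smarcb1-deficient mouse tumors and in healthy mouse brain. The 10 members are a fixed list of receptors and ligands, found by symbol among the 50600 gene IDs of the count files. The 5 receptors were Pdcd1, Ctla4, Lag3, Havcr2 and Tigit, and the 5 ligands were Cd274, Pdcd1lg2, Cd80, Cd86 and Cd276. Bulk polyadenylated RNA was sequenced from 17 samples of the strain C57BL/6J, of which 14 came from separate tumors with the genotype SMARCB1 -/- and 3 were biological replicates of wild-type healthy brain. Loss of SMARCB1, which belongs to the SWI/SNF complexes that move nucleosomes, is the hallmark of rhabdoid tumors of childhood. The groups were syngeneic grafts placed in the flank (n = 3), extracranial tumors (n = 4), Myc CNS tumors (n = 4), SHH CNS tumors (n = 3) and healthy brain (n = 3). The labels do not give the age of the animals, how or in which cells Smarcb1 was deleted, or the parent tumor of each graft, so grafts may share a parent, and the host genotype of the grafts is not given either. The p-values below measure the spread between these samples.

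T cells need a signal through their antigen receptor and a second one through costimulatory receptors, and checkpoint receptors dampen that response. CD28 gives the stimulating signal when it binds CD80 or CD86 on antigen-presenting cells, and CTLA-4 competes with it for the same ligands. PD-1, encoded by Pdcd1, appears on T cells after activation and binds PD-L1 and PD-L2, the products of Cd274 and Pdcd1lg2. PD-L1 is made by leukocytes, stromal cells and tumor cells and is strongly induced by interferon gamma, whereas PD-L2 is mostly a product of dendritic cells and macrophages. LAG-3, TIM-3 and TIGIT are further inhibitory receptors, found on T cells that have met antigen for long and on other leukocytes. In healthy brain, T cells are scarce and microglia are the main resident immune cell.

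The start regions of 4 ligand genes are shown because these ligands behaved differently across the tumor groups and because their start regions differ in base composition. Each is the RefSeq promoter window of build GRCm38.p6, from 250 bases before to 50 bases after the annotated start, and the CG dinucleotides are in capitals. That start need not be the outer end of the gene coordinates given below, which come from another annotation. The Cd80 window lies inside its gene (chr16:38455561-38496335), as does the Ctla4 window (chr1:60908775-60909074 in 60887000-60915832). Other starts of these genes were not searched.
Cd274 (chr19:29367188-29367487, plus strand): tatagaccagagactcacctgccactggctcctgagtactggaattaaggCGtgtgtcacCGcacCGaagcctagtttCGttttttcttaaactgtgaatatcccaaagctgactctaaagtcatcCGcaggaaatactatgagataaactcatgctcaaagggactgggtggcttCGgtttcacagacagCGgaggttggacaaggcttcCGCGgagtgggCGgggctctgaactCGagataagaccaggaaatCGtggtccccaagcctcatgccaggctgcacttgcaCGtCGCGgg
Pdcd1lg2 (chr19:29410669-29410968, plus strand): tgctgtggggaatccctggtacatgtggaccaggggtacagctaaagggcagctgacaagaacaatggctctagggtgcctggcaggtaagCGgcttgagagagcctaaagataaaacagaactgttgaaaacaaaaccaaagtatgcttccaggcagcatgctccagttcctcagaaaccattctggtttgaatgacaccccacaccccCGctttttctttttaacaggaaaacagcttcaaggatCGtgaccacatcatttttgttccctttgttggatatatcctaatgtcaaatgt
Cd80 (chr16:38458683-38458982, plus strand): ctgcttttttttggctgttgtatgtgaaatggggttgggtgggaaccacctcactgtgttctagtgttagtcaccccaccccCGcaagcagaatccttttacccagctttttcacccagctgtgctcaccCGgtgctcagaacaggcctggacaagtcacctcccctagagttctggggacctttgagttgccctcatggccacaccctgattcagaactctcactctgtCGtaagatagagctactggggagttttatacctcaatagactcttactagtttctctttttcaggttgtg
Cd276 (chr9:58554984-58555283, minus strand): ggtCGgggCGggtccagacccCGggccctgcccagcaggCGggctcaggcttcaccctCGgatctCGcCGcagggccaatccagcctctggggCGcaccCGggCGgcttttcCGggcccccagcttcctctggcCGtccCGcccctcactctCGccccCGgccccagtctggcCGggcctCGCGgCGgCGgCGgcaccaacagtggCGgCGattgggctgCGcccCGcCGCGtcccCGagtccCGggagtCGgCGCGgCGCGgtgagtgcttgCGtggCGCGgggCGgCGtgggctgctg
The Cd276 window held 39 CG dinucleotides and 78.3% G and C, and 4.45% of the 32851 promoters in the table held as many. Cd274 held 15 CG dinucleotides, while Pdcd1lg2, whose gene starts 43464 bases further along the same chromosome, held 3. Cd80 and Havcr2 also held 3, Pdcd1 and Tigit 5 each and Ctla4 8, against a median of 7 over all promoters. Lag3 and Cd86 had no entry. None of the 8 windows matched TTCNNNGAA, the letters of the gamma-activated sequence, which 8.30% of all promoters held. None held, on either strand, the interferon-stimulated response element (ISRE) letters GAAA, any 2 bases, GAAA, which 3.44% held. The 2 motifs were searched separately, TTCNNNGAA reads the same on both strands, and the absence of these letters from a window says nothing about the factors.

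Libraries held 36951431 to 96214427 counts in grafts, 22491998 to 52956537 in extracranial tumors, 18685672 to 114338058 in Myc CNS tumors, 35662656 to 71390917 in SHH CNS tumors and 103095016 to 130835711 in brain. Smarcb1 stood between 2.51 and 33.2 CPM (read counts scaled to library size) in the 14 tumors, against 119 to 132 CPM in brain. Neuron markers summed to 154 to 214 CPM in grafts, 35.9 to 161 CPM in extracranial tumors, 84.7 to 434 CPM in Myc CNS tumors, 685 to 3264 CPM in SHH CNS tumors and 3216 to 4062 CPM in brain. Healthy brain 1 also held pituitary and skeletal muscle transcripts, with Gh at 1214 CPM and Acta1 at 138 CPM, and SHH CNS tumor 1 had the most neuron transcripts of the tumors. Pituitary markers also summed to 192 CPM in Myc CNS tumor 1, against 0.365 to 1.32 CPM in the other Myc CNS tumors, and calls that change without that library are given beside the members. In such bulk samples, fewer cells of a type and less RNA per cell cannot be told apart.

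By mean CPM, 7 of the 10 checkpoint genes were highest in the flank grafts, while Havcr2 was highest in extracranial tumors, Cd80 in Myc CNS tumors and Cd276 in SHH CNS tumors. Against brain, most members were called higher in grafts, extracranial tumors and Myc CNS tumors, and none was called in SHH CNS tumors. A gene was called when its adjusted p from the edgeR quasi-likelihood test was under 0.05 over 21494 genes, and all 10 members were measured well enough to be tested. In grafts against brain, 10 members were called, where 55.3% of all genes were. Of these, 9 were higher, where 24.9% of all genes were, and Cd276 was lower, where 30.4% were. Extracranial tumors against brain had 6 members called, all higher, where 52.2% of all genes were called and 26.1% were higher. Myc CNS tumors against brain had 7 called, where 52.2% of all genes were. That count split into 6 higher, where 25.3% of all genes were, and Cd276 lower, where 26.8% were.

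No member was called in SHH CNS tumors against brain by edgeR, where 4.37% of all genes were called (2.44% higher and 1.94% lower). At an unadjusted p under 0.05 there were 2, Pdcd1 and Havcr2. The share of all genes at that unadjusted threshold is not given, so this count has no background beside it. DESeq2 called 2 members, where it called 13.6% of all genes, and limma voom 3, where it called 35.2%, so that both counts are near the background. The median log2 fold change of the 10 members was 4.98 in grafts, 3.34 in extracranial tumors, 3.52 in Myc CNS tumors and 0.82 in SHH CNS tumors, each against brain. Over all genes tested the same medians were -0.16, 0.05, -0.01 and -0.02. The 4 comparisons share the same 3 brain libraries.

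Between tumor groups, 9 members were called in grafts against SHH CNS tumors, where 46.2% of all genes were called. Of them, 8 were higher, where 20.4% of all genes were, and Cd276 was lower, where 25.8% were. Havcr2 was the member not called there. Myc CNS tumors against SHH CNS tumors had 7 called, where 40.9% of all genes were, with 6 higher (19% of all genes) and Cd276 lower (21.9% of all genes). Extracranial tumors against SHH CNS tumors had 5 called, all higher, where 38.3% of all genes were called, 18.6% higher and 19.7% lower. Grafts against Myc CNS tumors had 3 called, all higher, where 6% of all genes were called, 3.12% higher and 2.88% lower, namely Lag3, Tigit and Pdcd1lg2. Grafts against extracranial tumors had 2 called, both higher, where 4.78% of all genes were called, 2.16% higher and 2.62% lower, namely Tigit and Pdcd1lg2.

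No member was called in extracranial against Myc CNS tumors by edgeR, where 0.0186% of all genes were. At an unadjusted p under 0.05, 2 members passed (Cd80 and Cd276), and the share of all genes at that threshold is not given. DESeq2 called 2 members there, where it called 5.96% of all genes, and limma voom called 0 members and 0% of all genes. In grafts against Myc CNS tumors, DESeq2 and limma voom each called 6 members, where they called 17.8% and 19% of all genes. In grafts against extracranial tumors they also called 6 each, where 17.7% of all genes were called by DESeq2 and 13.5% by limma voom. Of the 49 calls over the 10 comparisons, 34 held without each of the 17 libraries in turn and 28 held under every alternative run. The deposited files of all 4 extracranial tumors and of Myc CNS tumors 1 and 2 share a leading number, and 15 calls were lost with that number as a covariate, whose effect is estimated within the Myc CNS tumors alone because all 4 extracranial tumors carry it. All 5 calls in extracranial against SHH CNS tumors were among them (Ctla4, Havcr2, Tigit, Cd274 and Cd86), as were Ctla4, Tigit and Cd274 in extracranial tumors against brain. The others were Ctla4, Havcr2 and Cd86 in Myc CNS against SHH CNS tumors, Cd276 in Myc CNS tumors against brain, Tigit in grafts against Myc CNS tumors, and Tigit and Pdcd1lg2 in grafts against extracranial tumors. The covariate also took the calls over all genes to 9.67% in extracranial against SHH CNS tumors and 24.3% in extracranial tumors against brain.

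**Figure D1:**
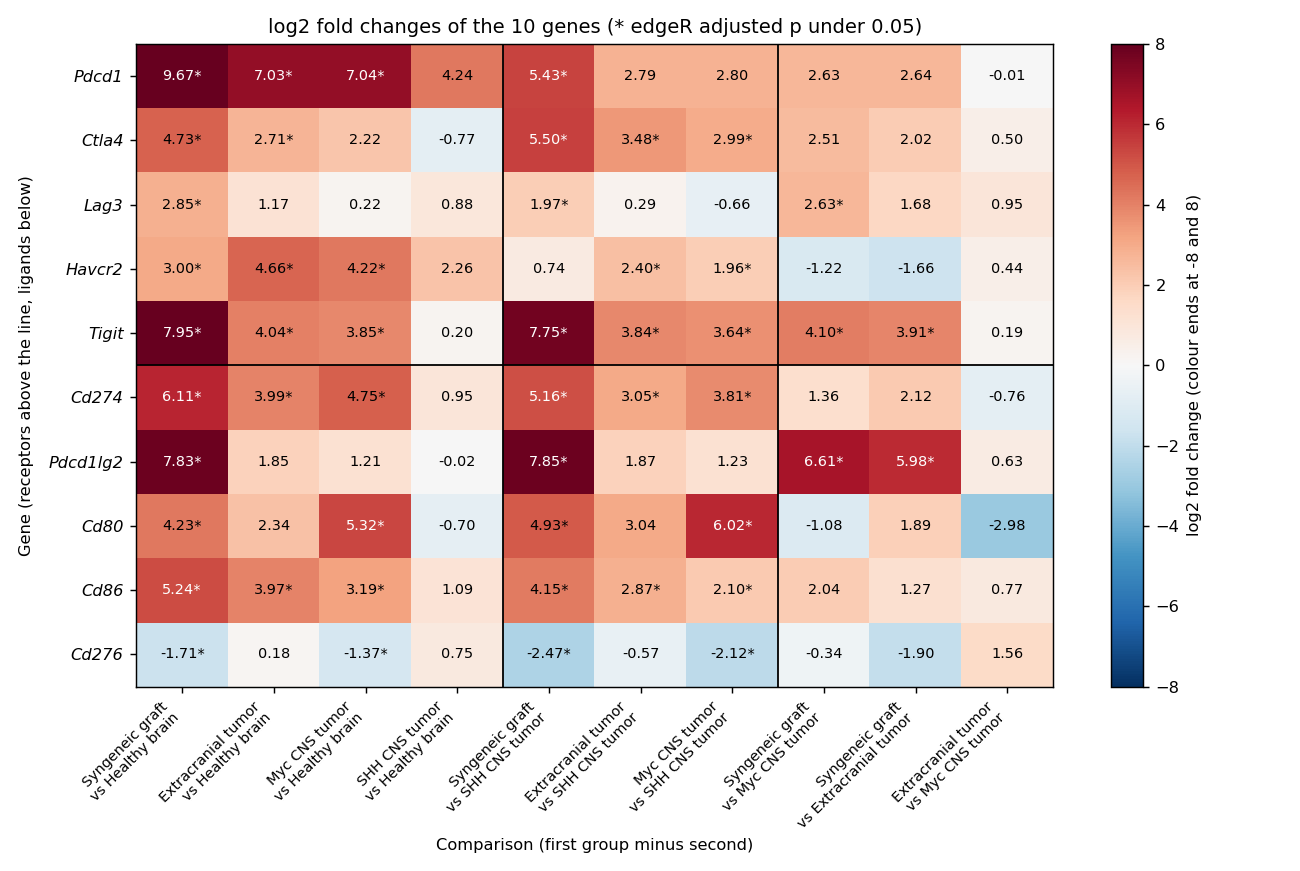
Fitted log2 fold changes of the 5 receptors (above the horizontal line) and 5 ligands (below it) in the 10 comparisons, first group minus second, with an asterisk where the edgeR adjusted p was under 0.05. Grafts against brain have an asterisk for all 10 genes, while SHH CNS tumors against brain and extracranial against Myc CNS tumors have none.

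Pdcd1 (chr1:94038305-94052553, minus strand), which encodes the inhibitory receptor PD-1, was nearly absent from brain and most abundant in the grafts. It had 2.70, 25.3 and 10.1 CPM in grafts, 2.10, 0.856, 3.73 and 1.49 CPM in extracranial tumors, and 4.10, 0.0521, 1.40 and 2.69 CPM in Myc CNS tumors. SHH CNS tumors had 0.412, 0.188 and 0.283 CPM, and the 3 brains had 0.00794, 0 and 0.0318 CPM, which is 5 counts in all. Every tumor library stood above every brain library, and Myc CNS tumor 2, with a single count, was the lowest tumor. Pdcd1 was higher than in brain by a log2 fold change of 9.67 ± 1.55 (SE) in grafts (adjusted p = 0.000178), 7.03 ± 1.39 in extracranial tumors (0.000926) and 7.04 ± 1.40 in Myc CNS tumors (0.000945). Against a group with 5 counts these folds are imprecise, and without Healthy brain 3, which held 4 of them, they were 10.96, 8.32 and 8.34. Without graft 2 the graft value was 8.67. In SHH CNS tumors the fitted value was 4.24 ± 1.29 (adjusted p = 0.0751), and it passed without Myc CNS tumor 2 (0.0289), with the 2 groups fitted alone (0.0428) and by DESeq2 (0.00487). Grafts exceeded SHH CNS tumors by 5.43 ± 1.27 (adjusted p = 0.00346), or 4.40 without graft 2. Extracranial and Myc CNS tumors did not pass against SHH CNS tumors, at 2.79 (adjusted p = 0.0594) and 2.80 (0.0558), and did without Myc CNS tumor 2 (0.0227 and 0.0156).

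Ctla4 (chr1:60887000-60915832, plus strand), the inhibitory counterpart of Cd28 on T cells, had its highest mean in the grafts, in a range that overlapped that of extracranial tumors. It had 1.77, 7.50 and 2.32 CPM in grafts, 0.926, 0.467, 2.36 and 0.0680 CPM in extracranial tumors, 0.820, 1.15, 0.506 and 0.284 CPM in Myc CNS tumors, 0.0257, 0.117 and 0.102 CPM in SHH CNS tumors, and 0.270, 0.0485 and 0.111 CPM in brain. Grafts and Myc CNS tumors stood above all brain libraries, whereas extracranial tumor 4, with 2 counts, lay within the brain range. The log2 fold change against brain was 4.73 ± 1.11 in grafts (edgeR adjusted p = 0.0027), 2.71 ± 0.99 in extracranial tumors (0.0333) and 2.22 ± 0.98 in Myc CNS tumors (0.0703). The graft value was 3.79 without graft 2 and 5.55 without Healthy brain 1. The extracranial call was lost without extracranial tumor 3 (1.72, adjusted p = 0.127), Healthy brain 2 (0.114) or Healthy brain 3 (0.104), and the value was 3.53 without Healthy brain 1. The Myc value passed without extracranial tumor 3 (0.0473) or 4 (0.0362). Ctla4 was higher in grafts than in SHH CNS tumors by 5.50 ± 1.18 (adjusted p = 0.00194), or 4.53 without graft 2. It was also higher in extracranial tumors by 3.48 ± 1.07 (adjusted p = 0.0194) and in Myc CNS tumors by 2.99 ± 1.05 (0.0349), with 15 counts in all in the SHH CNS tumors. The extracranial call was lost without SHH CNS tumor 1 (0.0739), SHH CNS tumor 3 (0.0506) or extracranial tumor 3 (2.49, adjusted p = 0.0572). The Myc call was lost without any 1 SHH CNS tumor, Myc CNS tumor 1 or Myc CNS tumor 2, with adjusted p from 0.0575 to 0.114. With the file number as a covariate, the extracranial values were 1.41 against brain (adjusted p = 0.517) and 2.17 against SHH CNS tumors (0.385), and the Myc value against SHH CNS tumors was 2.22 (0.149). Grafts were not called over extracranial tumors (2.02 ± 0.90, edgeR adjusted p = 0.176) or Myc CNS tumors (2.51 ± 0.91, 0.106). Cd28, the stimulating receptor for the same ligands, had 6.24 to 10.8 CPM in grafts, 0.292 to 3.27 in extracranial tumors, 0.365 to 0.969 in Myc CNS tumors, 0.0235 to 0.102 in SHH CNS tumors and 0.198 to 0.417 CPM in brain. It was higher in grafts than in Myc CNS tumors by 3.72 ± 0.68 (edgeR adjusted p = 0.0146).

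Tigit (chr16:43648867-43664146, minus strand) encodes an inhibitory receptor of T and NK cells that binds the poliovirus receptor, and it separated the grafts from every other group. It had 3.12, 13.2 and 11.1 CPM in grafts, 1.02, 0.136, 1.25 and 0.0340 CPM in extracranial tumors, and 0.820, 0.313, 0.733 and 0.254 CPM in Myc CNS tumors. SHH CNS tumors had 0.0515, 0.0235 and 0.0453 CPM and brain 0.00794, 0.0582 and 0.0398 CPM, with 7 counts in all in SHH CNS tumors and 12 in brain. No library of another group reached the lowest graft. Against brain, Tigit was higher by 7.95 ± 1.29 in grafts (edgeR adjusted p = 0.000191), 4.04 ± 1.08 in extracranial tumors (0.00661) and 3.85 ± 1.07 in Myc CNS tumors (0.00854), and the extracranial value was 3.38 without extracranial tumor 3. Against SHH CNS tumors it was higher by 7.75 ± 1.31 in grafts (adjusted p = 0.00041), 3.84 ± 1.12 in extracranial tumors (0.0151) and 3.64 ± 1.11 in Myc CNS tumors (0.0179). The extracranial value was 3.17 without extracranial tumor 3 and its call was lost without SHH CNS tumor 2 (0.0595), and the Myc call was lost without SHH CNS tumor 2 (0.0657) or 3 (0.0534). Grafts exceeded Myc CNS tumors by 4.10 ± 0.96 (adjusted p = 0.0288) and extracranial tumors by 3.91 ± 0.95 (0.037). The first of these calls was lost without Myc CNS tumor 4 or any 1 of the 3 grafts, with adjusted p from 0.0577 to 0.0931. The second was lost without extracranial tumor 2, any 1 graft, SHH CNS tumor 2, Healthy brain 2 or Healthy brain 3, with adjusted p from 0.0501 to 0.115, and without extracranial tumor 3 its fold change was 4.58. With the file-number covariate, Tigit kept its direction but lost 4 calls, in extracranial tumors against brain (3.85, adjusted p = 0.0985) and SHH CNS tumors (3.65, 0.174), and in grafts against Myc CNS tumors (4.20, 0.0925) and extracranial tumors (4.10, 0.211).

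Lag3 (chr6:124904361-124911705, minus strand), a receptor of activated T cells that binds MHC class II, differed from the 3 genes above in being measurable in brain. It had 37.4, 56.4 and 49.9 CPM in grafts, 7.46, 12.2, 10.6 and 29.6 CPM in extracranial tumors, 5.79, 14.9, 3.96 and 6.42 CPM in Myc CNS tumors, 19.0, 10.9 and 6.85 CPM in SHH CNS tumors, and 11.9, 4.05 and 4.06 CPM in brain. The grafts stood above all other libraries, and the other 4 groups overlapped each other. Lag3 was higher in grafts than in brain by 2.85 ± 0.65 (edgeR adjusted p = 0.00228), or 3.56 without Healthy brain 1, the highest brain. Grafts exceeded Myc CNS tumors by 2.63 ± 0.58 (adjusted p = 0.0249), but the call was lost without Myc CNS tumor 3, Myc CNS tumor 4 or any 1 graft, with adjusted p from 0.0526 to 0.086. The graft call over SHH CNS tumors, 1.97 ± 0.63 (adjusted p = 0.02), was lost without SHH CNS tumor 2, SHH CNS tumor 3 or graft 2, with adjusted p from 0.0616 to 0.0732. Neither extracranial nor Myc CNS tumors were called against brain, with fold changes of 1.17 ± 0.59 and 0.22 ± 0.57 (adjusted p = 0.108 and 0.767). Grafts against extracranial tumors, 1.68 ± 0.57 (adjusted p = 0.0893), passed without extracranial tumor 4 (0.0475).

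Havcr2 (chr11:46454935-46481255, plus strand), which encodes TIM-3, a receptor of T cells that macrophages and microglia also make, was the one receptor whose highest mean was not in the grafts. It had 3.82, 13.9 and 9.24 CPM in grafts, 70.1, 17.02, 9.36 and 17.1 CPM in extracranial tumors, 33.8, 23.9, 14.8 and 11.4 CPM in Myc CNS tumors, 4.58, 6.02 and 5.57 CPM in SHH CNS tumors, and 1.52, 0.582 and 1.26 CPM in brain. All 14 tumors stood above the 3 brains, and graft 1 lay below the SHH CNS tumors. The log2 fold change against brain was 3.00 ± 0.73 in grafts (edgeR adjusted p = 0.00346), 4.66 ± 0.78 in extracranial tumors (0.000255) and 4.22 ± 0.76 in Myc CNS tumors (0.000471), and the extracranial value was 3.70 without extracranial tumor 1. In SHH CNS tumors it was 2.26 ± 0.71 (adjusted p = 0.0844), which was called without extracranial tumor 1 (0.0307), by DESeq2 (0.0125) and by limma voom (0.00794). Extracranial tumors exceeded SHH CNS tumors by 2.40 ± 0.69 (edgeR adjusted p = 0.0143), a call lost without extracranial tumor 1 (1.41, adjusted p = 0.0542) or SHH CNS tumor 1 (0.0551). Myc CNS tumors exceeded SHH CNS tumors by 1.96 ± 0.68 (adjusted p = 0.0324), a call lost without any 1 of the 3 SHH CNS tumors, Myc CNS tumor 1 or Myc CNS tumor 2, with adjusted p from 0.056 to 0.0991. With the file-number covariate both calls were lost, at 1.26 in extracranial tumors (adjusted p = 0.456) and 1.28 in Myc CNS tumors (0.197).

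**Figure D2:**
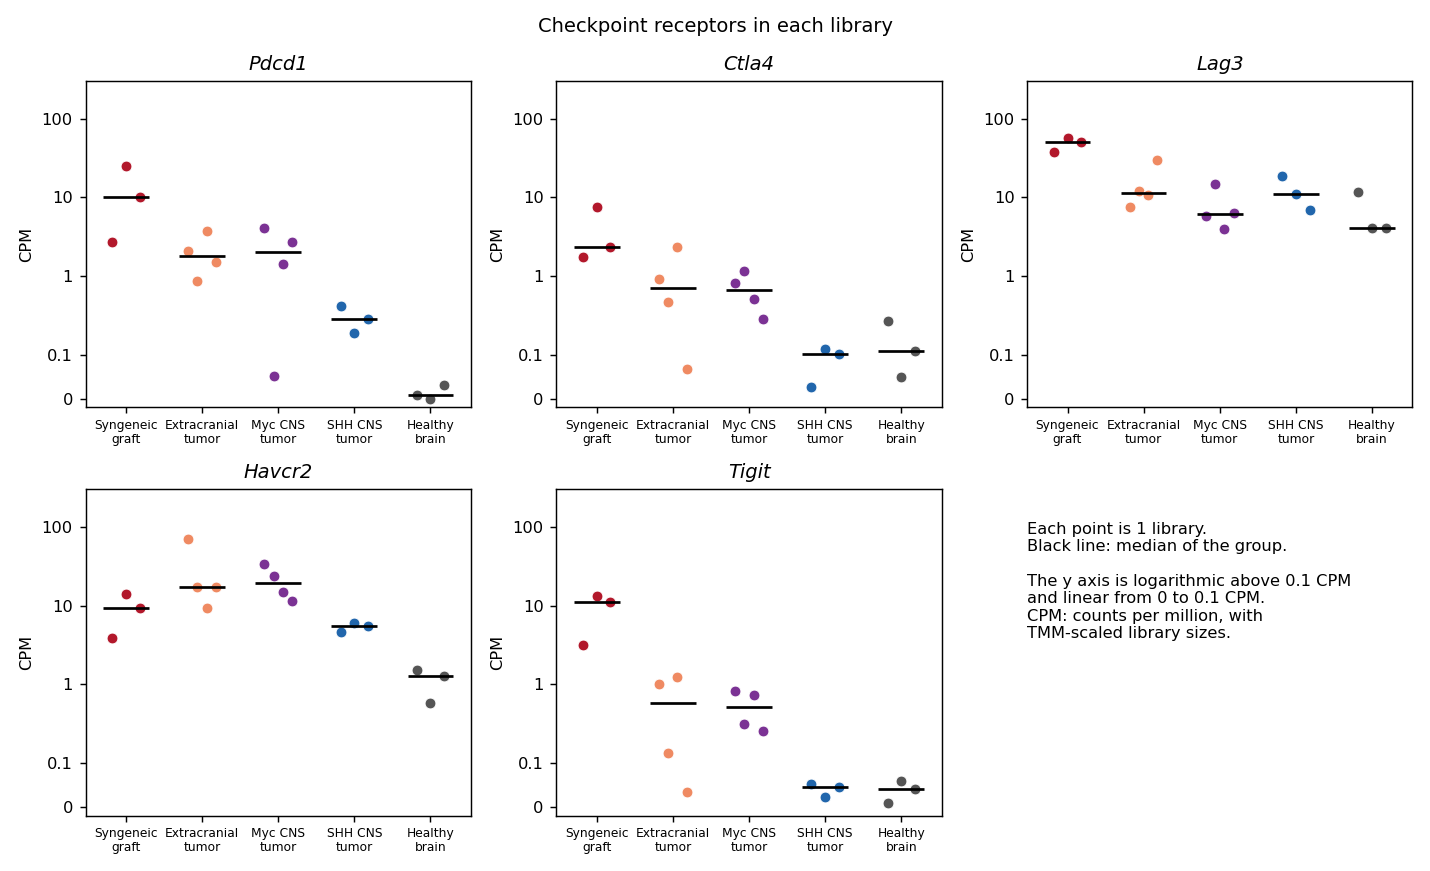
Level of each receptor gene in the 17 libraries, in CPM on an axis that is logarithmic above 0.1 CPM, with a line at each group's median. Graft points are the highest for Tigit (3.12 to 13.2 CPM) and Lag3 (37.4 to 56.4 CPM), whereas Havcr2 peaks in extracranial tumor 1 at 70.1 CPM.

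Transcripts of T cells, which make the receptors along with other leukocytes, were counted in the same libraries. Of 11 T cell markers, 9 were called higher in grafts, 9 in extracranial tumors, 7 in Myc CNS tumors and 0 in SHH CNS tumors, each against brain by edgeR, and none was lower. Of the receptors, Lag3 was called in neither extracranial nor Myc CNS tumors against brain, and Ctla4 was not called in Myc CNS tumors. In SHH CNS tumors 3 of the 11 were under an unadjusted p of 0.05, with no share of all genes given there. Their summed level was 96.0 to 210.8 CPM in grafts, 12.6 to 61.2 CPM in extracranial tumors, 10.01 to 20.5 CPM in Myc CNS tumors, 1.93 to 5.15 CPM in SHH CNS tumors and 7.46 to 11.2 CPM in brain. Most of the brain sum was Lck, at 6.60 to 9.91 CPM. The 3 CD3 genes, which build the T cell receptor complex, summed to 18.4 to 59.7 CPM in grafts, 1.17 to 10.7 in extracranial tumors, 0.313 to 6.39 in Myc CNS tumors, 0.0772 to 0.973 in SHH CNS tumors and 0.0476 to 0.0716 CPM in brain. No T cell marker was at 0 in all libraries of a group. Pdcd1 per CD3 transcript, as a ratio of CPM, was 0.147 to 0.424 in grafts, 0.195 to 0.733 in extracranial tumors and 0.167 to 3.04 in Myc CNS tumors, 0.291 to 5.33 in SHH CNS tumors and 0 to 0.444 in brain, so all 5 ranges overlapped. Tigit per CD3 transcript was 0.170 to 0.246 in grafts and 0.0128 to 0.122 in extracranial tumors, which did not overlap. It was 0.0397 to 1.58 in Myc CNS tumors, 0.0465 to 0.667 in SHH CNS tumors and 0.167 to 1 in brain, and each of these ranges overlapped that of the grafts. Ctla4 per CD3 transcript was 0.0516 to 0.126 in grafts, 0.0256 to 0.4 in extracranial tumors and 0.0444 to 3.67 in Myc CNS tumors. For Ctla4 it was 0.105 to 0.556 in SHH CNS tumors and 0.833 to 5.67 in brain. Lag3 per CD3 transcript was 0.946 to 2.03 in grafts, 0.695 to 11.2 in extracranial tumors and 0.955 to 47.5 in Myc CNS tumors. For Lag3 it was 7.03 to 245 in SHH CNS tumors and 56.8 to 249 in brain. Havcr2 per CD3 transcript was 0.206 to 0.233 in grafts, below all other groups. It was 0.910 to 14.6 in extracranial, 1.78 to 76.3 in Myc CNS and 5.72 to 59.3 in SHH CNS tumors, and 10 to 31.8 in brain. Macrophages and microglia also make Havcr2, so its ratio to CD3 is not a level per T cell. The ratios in SHH CNS tumors and brain rest on few counts, with CD3 sums below 1 CPM. Myc CNS tumors 2 and 3 also had CD3 sums below 1 CPM, at 0.313 and 0.462 CPM. The top Myc ratio of each receptor came from 1 of these libraries. In Myc CNS tumors 1 and 4, Tigit per CD3 transcript was 0.135 and 0.0397, and Havcr2 per CD3 transcript was 5.58 and 1.78. Of 6 NK cell markers, 5 were called higher in grafts, 5 in extracranial and 5 in Myc CNS tumors against brain and 1 in SHH CNS tumors, with Klrk1 at 0 in all 3 brains. Their sums were 238 to 352 CPM in grafts, 1.85 to 22.97 CPM in extracranial tumors, 12.4 to 154 CPM in Myc CNS tumors, 2.42 to 7.70 CPM in SHH CNS tumors and 8.89 to 34.5 CPM in brain. One of these markers, Eomes, is also a gene of neural progenitors and was at 174 to 264 CPM in grafts and 8.69 to 34.3 CPM in brain. It made up most of each brain sum, so the NK marker sums do not measure NK cells alone. Its level in the other groups is not given. The part of T and NK cells in the receptor results was not tested.

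Cd274 (chr19:29367455-29388095, plus strand), which encodes PD-L1, was among the most abundant members in every tumor group except the SHH CNS tumors. It had 85.7, 172.9 and 103.4 CPM in grafts, 39.3, 35.2, 22.7 and 14.1 CPM in extracranial tumors, 20.3, 115.8, 27.6 and 25.0 CPM in Myc CNS tumors, 4.48, 2.42 and 3.20 CPM in SHH CNS tumors, and 0.849, 2.59 and 1.80 CPM in brain. Grafts, extracranial tumors and Myc CNS tumors stood above every SHH CNS tumor and brain library, and those last groups overlapped. The log2 fold change against brain was 6.11 ± 0.78 in grafts (edgeR adjusted p = 3.15e-05), 3.99 ± 0.69 in extracranial tumors (0.000341), 4.75 ± 0.72 in Myc CNS tumors (0.000131) and 0.95 ± 0.64 in SHH CNS tumors (0.412). Against SHH CNS tumors it was 5.16 ± 0.75 in grafts (adjusted p = 0.000151), 3.05 ± 0.66 in extracranial tumors (0.00275) and 3.81 ± 0.68 in Myc CNS tumors (0.000838). Without Myc CNS tumor 2 the Myc values were 3.80 against brain and 2.83 against SHH CNS tumors, and both stayed called. With the file-number covariate both extracranial calls were lost, at 2.62 against brain (adjusted p = 0.0504) and 1.67 against SHH CNS tumors (0.243). Grafts did not pass the test against extracranial tumors (2.12 ± 0.59, adjusted p = 0.0534) by edgeR, although they did with DESeq2 (0.00614), with limma voom (0.00908), or without Myc CNS tumor 1 (0.0476), Myc CNS tumor 2 (0.0172) or extracranial tumor 1 (0.0449). Exons of Cd274 overlap those of an antisense gene, AC119228.1, and reads of the 2 genes cannot be told apart here, because no source states the strand setting of the counts.

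Pdcd1lg2 (chr19:29410919-29471161, plus strand), the neighbour of Cd274 that encodes PD-L2, was detected at more than trace level in the grafts alone. It had 3.46, 49.7 and 7.33 CPM in grafts, 0.488, 0.214, 0.447 and 0.136 CPM in extracranial tumors, and 0.219, 0.0521, 0.244 and 0.269 CPM in Myc CNS tumors. SHH CNS tumors had 0.0772, 0.0470 and 0.124 CPM and brain 0.0318, 0.0776 and 0.151 CPM. Graft 2 was far above the other grafts, and even the lowest graft was above all 14 other libraries. Grafts exceeded brain by 7.83 ± 1.15 (edgeR adjusted p = 9e-05), SHH CNS tumors by 7.85 ± 1.16 (0.000175), Myc CNS tumors by 6.61 ± 0.96 (0.00871) and extracranial tumors by 5.98 ± 0.94 (0.00903). Without graft 2 these 4 values were 5.90, 5.90, 4.69 and 4.08, and all stayed called. Without Healthy brain 3 the value against brain was 8.48. The call over extracranial tumors was lost when the fit held those 2 groups alone (adjusted p = 0.0716) or took the file number as a covariate (5.06, adjusted p = 0.142). Of the genes near Pdcd1lg2, Cd274 was also highest in graft 2, at 172.9 CPM. So were Plgrkt (80.5 CPM, against 63.9 to 70.6 CPM in the other grafts) and Ric1 (75.2 against 57.7 to 62.6 CPM). Jak2 had 67.4 CPM in graft 2 and 64.0 and 66.1 CPM in the other grafts. Others were lowest in graft 2, such as Rcl1 (31.8 against 37.3 to 37.9 CPM) and Ermp1 (51.3 against 112.8 to 249.1 CPM). These neighbours were chosen after their values were seen, and their part in the result was not tested. Extracranial tumors against brain, 1.85 ± 0.88 (adjusted p = 0.0927), passed without graft 2 (0.0382).

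Cd80 (chr16:38455561-38496335, plus strand) and Cd86 (chr16:36603869-36666081, minus strand) encode the 2 ligands shared by CD28 and CTLA-4. Cd86 had 63.2, 87.4 and 56.5 CPM in grafts, 64.9, 22.7, 20.3 and 6.52 CPM in extracranial tumors, 35.3, 8.29, 8.74 and 14.7 CPM in Myc CNS tumors, 3.55, 4.58 and 3.56 CPM in SHH CNS tumors, and 1.76, 1.98 and 1.74 CPM in brain. All tumors stood above brain, and grafts, extracranial and Myc CNS tumors also stood above the SHH CNS tumors. The log2 fold change of Cd86 against brain was 5.24 ± 0.77 in grafts (edgeR adjusted p = 9.46e-05), 3.97 ± 0.71 in extracranial tumors (0.000453) and 3.19 ± 0.69 in Myc CNS tumors (0.00162). The extracranial value was 3.17 without extracranial tumor 1 and the Myc value 2.55 without Myc CNS tumor 1. Against SHH CNS tumors it was 4.15 ± 0.73 in grafts (adjusted p = 0.00057), 2.87 ± 0.67 in extracranial tumors (0.00455) and 2.10 ± 0.65 in Myc CNS tumors (0.0192). The extracranial value was 2.05 without extracranial tumor 1, and the Myc call was lost without Myc CNS tumor 1 (1.43, adjusted p = 0.0626), SHH CNS tumor 1 (0.0646) or SHH CNS tumor 3 (0.0594). With the file-number covariate, both were lost against SHH CNS tumors, at 1.98 in extracranial tumors (adjusted p = 0.217) and 1.59 in Myc CNS tumors (0.108). Grafts against Myc CNS tumors, 2.04 ± 0.61 (adjusted p = 0.0594), passed without Myc CNS tumor 1 (0.028), extracranial tumor 1 (0.0258) or extracranial tumor 4 (0.0253).

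Cd80 was scarcer than Cd86 except in 1 library. It had 8.63, 11.4 and 5.77 CPM in grafts, 2.78, 1.77, 2.18 and 2.55 CPM in extracranial tumors, 1.53, 0.990, 69.2 and 1.11 CPM in Myc CNS tumors, 0.309, 0.235 and 0.294 CPM in SHH CNS tumors, and 0.540, 0.437 and 0.390 CPM in brain. SHH CNS tumors lay below brain without passing the test (adjusted p = 0.78), and Myc CNS tumor 3, with 7926 counts, stood above all other libraries. Cd80 was higher than in brain by 4.23 ± 1.36 in grafts (edgeR adjusted p = 0.0168) and by 5.32 ± 1.41 in Myc CNS tumors (0.0063). Without Myc CNS tumor 3 the Myc value was 1.39 (adjusted p = 0.00892) and the graft value 4.21 (8.76e-06). The graft call was lost without Healthy brain 2 (adjusted p = 0.0534) or Healthy brain 3 (0.057). Cd80 was higher than in SHH CNS tumors in grafts by 4.93 ± 1.42 (adjusted p = 0.0113) and in Myc CNS tumors by 6.02 ± 1.47 (0.00549), and the Myc value was 2.06 (0.00184) without Myc CNS tumor 3. Extracranial tumors did not pass the test against SHH CNS tumors (3.04 ± 1.27, adjusted p = 0.0729) but did without Myc CNS tumor 3 (0.000134) or Myc CNS tumor 2 (0.048). They also passed with the file-number covariate (7.84, adjusted p = 0.00904). Its effect is estimated within the Myc CNS tumors alone, so that value depends on the high level in Myc CNS tumor 3. Grafts did not differ from Myc CNS tumors in the test (-1.08 ± 1.14, adjusted p = 0.6), and without Myc CNS tumor 3 they were higher by 2.82 (0.00999).

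Cd276 (chr9:58524298-58555437, minus strand) encodes B7-H3, a member of the same ligand family that many tumors carry and whose receptor is not settled. It was the one member called lower in any comparison. It had 13.9, 10.9 and 8.94 CPM in grafts, 10.7, 54.3, 35.9 and 66.9 CPM in extracranial tumors, 15.1, 8.60, 18.8 and 14.5 CPM in Myc CNS tumors, 22.6, 85.1 and 78.8 CPM in SHH CNS tumors, and 36.9, 37.8 and 36.0 CPM in brain. Grafts and Myc CNS tumors stood below all brain and SHH CNS tumor libraries, while SHH CNS and extracranial tumors spread on both sides of brain. The log2 fold change was -1.71 ± 0.56 in grafts against brain (edgeR adjusted p = 0.0187) and -1.37 ± 0.51 in Myc CNS tumors against brain (0.0356). The graft call was lost without graft 2 or graft 3, with adjusted p of 0.0555 and 0.0668. The Myc call was lost without any 1 brain or without Myc CNS tumor 1, 2 or 4, with adjusted p from 0.066 to 0.0903, or with the file-number covariate (-1.15, adjusted p = 0.162). Against SHH CNS tumors the values were -2.47 ± 0.58 in grafts (adjusted p = 0.00339) and -2.12 ± 0.52 in Myc CNS tumors (0.00532), and both stayed called without each library. Grafts against extracranial tumors, -1.90 ± 0.54 (adjusted p = 0.0577), passed without SHH CNS tumor 1 (0.0436) or extracranial tumor 1 (0.0136). Exons of Cd276 overlap those of Gm10657 on the other strand, so reads of the 2 genes cannot be told apart here.

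**Figure D3:**
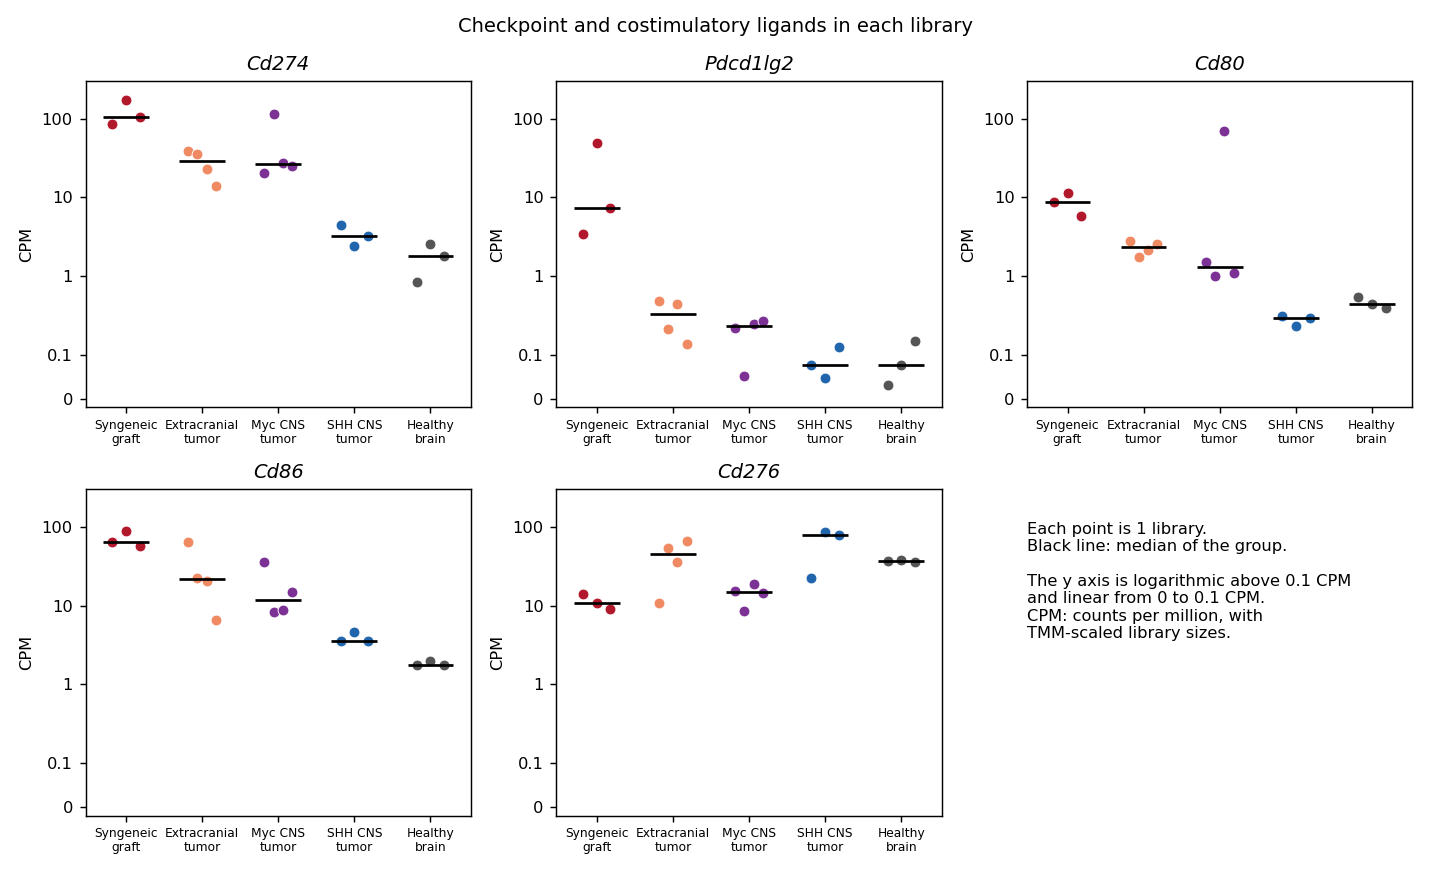
Level of each ligand gene in the 17 libraries, in CPM on an axis that is logarithmic above 0.1 CPM, with a line at each group's median. Pdcd1lg2 exceeds 0.488 CPM in the 3 grafts only, single Myc CNS tumors stand out for Cd274 (115.8 CPM) and Cd80 (69.2 CPM), and Cd276 is lowest in grafts and Myc CNS tumors.

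Transcripts of myeloid cells, the usual source of CD86 and PD-L2, were counted in the same way. All 10 macrophage and monocyte markers were called higher in grafts, extracranial tumors and Myc CNS tumors against brain by edgeR, and 4 of 10 in SHH CNS tumors. Of the ligands, Pdcd1lg2 was not called in extracranial (adjusted p = 0.0927) or Myc CNS tumors (0.255) against brain, and Cd80 was not called in extracranial tumors (0.119). The macrophage markers summed to 5617 to 6602 CPM in grafts, 2002 to 5158 CPM in extracranial tumors, 1062 to 3235 CPM in Myc CNS tumors, 300.3 to 331.5 CPM in SHH CNS tumors and 72.7 to 113.9 CPM in brain, and none was at 0 throughout a group. Of 7 dendritic cell markers, 5 were called higher and 1 lower in grafts, 5 and 1 in extracranial tumors, 4 and 1 in Myc CNS tumors, and 1 and 0 in SHH CNS tumors. Their sums were 83.9 to 205 CPM in grafts, 25.97 to 196 CPM in extracranial tumors, 15.0 to 54.5 CPM in Myc CNS tumors, 15.9 to 35.1 CPM in SHH CNS tumors and 28.2 to 34.3 CPM in brain. Of 7 microglia markers, 4 were higher and 1 lower in grafts, 4 and 1 in extracranial tumors, 4 and 2 in Myc CNS tumors, and 2 and 0 in SHH CNS tumors. They summed to 435 to 524 CPM in grafts, 541 to 1433 CPM in extracranial tumors, 511 to 947 CPM in Myc CNS tumors, 289 to 335 CPM in SHH CNS tumors and 83.5 to 120.3 CPM in brain.

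Set against Ptprc, which encodes the pan-leukocyte protein CD45, Cd86 was 0.135 to 0.209 of its CPM in grafts, 0.0509 to 0.270 in extracranial tumors, 0.126 to 0.225 in Myc CNS tumors, 0.195 to 0.546 in SHH CNS tumors and 0.491 to 0.883 in brain. The ratio of Cd274 to Ptprc was 0.182 to 0.414 in grafts, 0.110 to 0.420 in extracranial tumors, 0.175 to 0.454 in SHH CNS tumors and 0.237 to 1.16 in brain. In Myc CNS tumors the Cd274 ratio was 0.130 to 1.77, with the top value in Myc CNS tumor 2. For Cd80 the ratio was 0.0161 to 0.0273 in grafts, 0.0107 to 0.0211 in extracranial tumors, 0.00976 to 0.998 in Myc CNS tumors, 0.0161 to 0.0313 in SHH CNS tumors and 0.150 to 0.195 in brain. The top value was that of Myc CNS tumor 3, and brain stood above the grafts, extracranial tumors and SHH CNS tumors. For Pdcd1lg2 it was 0.00737 to 0.119 in grafts, 0.00106 to 0.00397 in extracranial tumors, 0.000796 to 0.00353 in Myc CNS tumors, 0.0056 to 0.00783 in SHH CNS tumors and 0.00885 to 0.0728 in brain. The graft range lay above those of extracranial and Myc CNS tumors and overlapped those of SHH CNS tumors and brain, with a median of 0.0205 in grafts and 0.0346 in brain. These ratios are descriptions with no test. The 6 fibroblast and pericyte markers summed to 1993 to 2214 CPM in grafts, 4442 to 9298 CPM in extracranial tumors, 3523 to 13978 CPM in Myc CNS tumors, 280 to 391 CPM in SHH CNS tumors and 358 to 3298 CPM in brain, the last in Healthy brain 1. Against SHH CNS tumors, 1 of these 6 was called higher in grafts, 4 in extracranial tumors and 5 in Myc CNS tumors, and none was lower. The part of leukocyte number and of stromal cells in the ligand results was not tested.

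**Figure D4:**
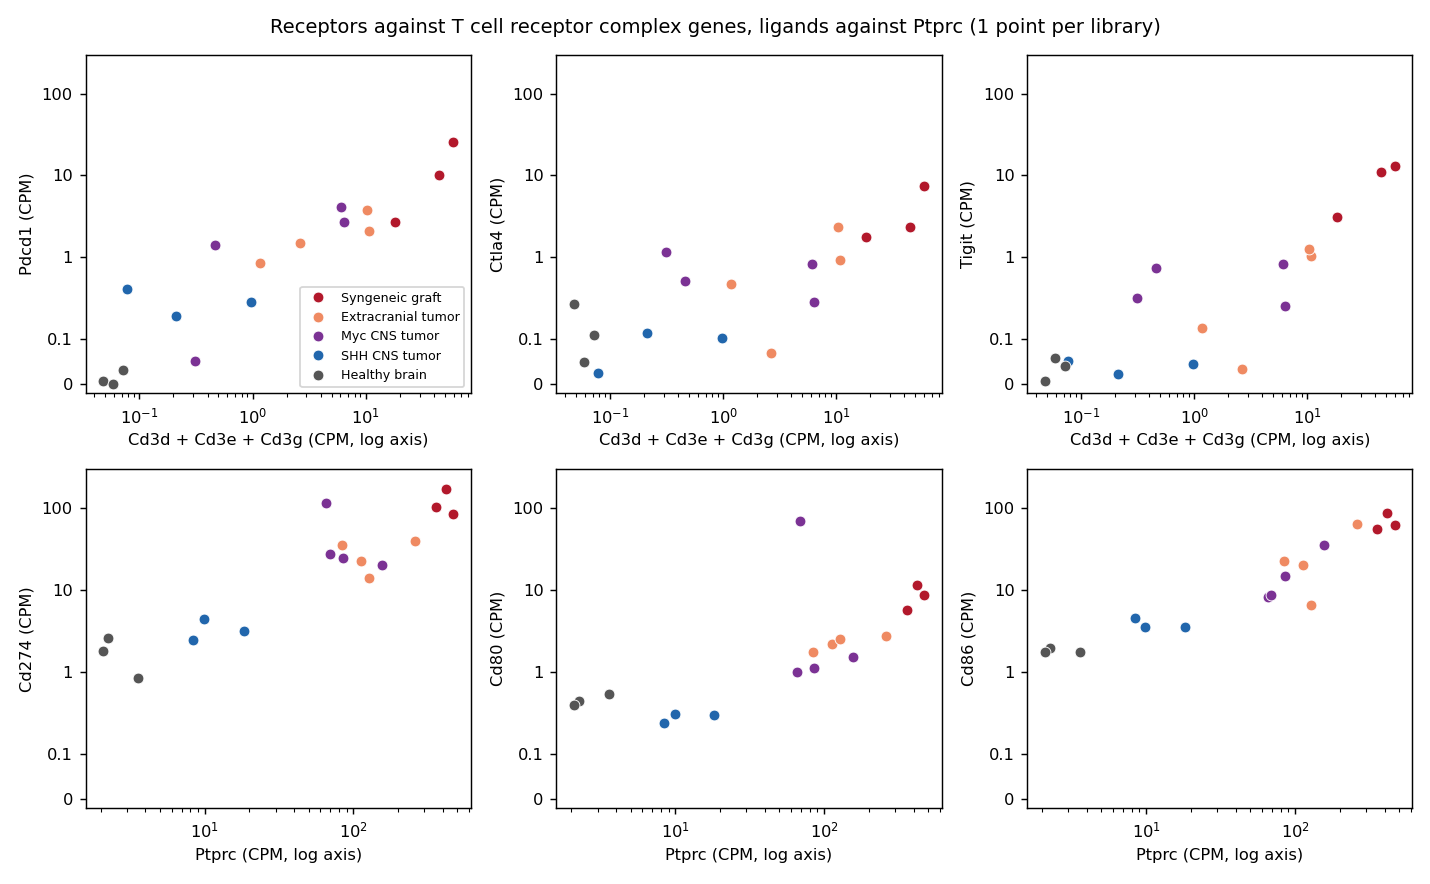
Levels of 3 receptors against the summed CD3 genes (top) and 3 ligands against Ptprc (bottom), 1 point per library, in CPM on log axes, with the y axis linear below 0.1 CPM. Grafts have the highest x values in each panel (CD3 sum 18.4 to 59.7 CPM), and Myc CNS tumor 2 for Cd274 (115.8 CPM) and Myc CNS tumor 3 for Cd80 (69.2 CPM) lie above libraries with like Ptprc.

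Levels of different members were compared per kilobase of exon. In grafts the highest was Cd274 at 33.3 ± 12.7 CPM per kb (SD, n = 3), then Lag3 at 22.7 ± 4.59 and Cd86 at 18.9 ± 4.44, and the lowest was Ctla4 at 1.66 ± 1.36. In extracranial tumors Cd276 (11.5 ± 6.67), Havcr2 (10.4 ± 10.3), Cd86 (7.81 ± 6.88), Cd274 (7.68 ± 3.20) and Lag3 (7.10 ± 4.72 CPM per kb, n = 4) lay within their spread. In Myc CNS tumors Cd274 led at 13.0 ± 12.7 CPM per kb (n = 4), or 5.61 to 7.63 in the libraries other than the highest, and Havcr2 followed at 7.71 ± 3.70. SHH CNS tumors had most of Cd276, at 6.18 to 23.3 CPM per kb, and of Lag3, at 5.81 ± 2.92 CPM per kb (n = 3), with no other member's mean above 1.98. Brain had the same 2 genes on top, Cd276 at 10.1 ± 0.253 and Lag3 at 3.16 ± 2.14 CPM per kb (n = 3), with Cd86 next at 0.499 ± 0.036.

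In the order of the groups by mean CPM, grafts came first for Pdcd1, Ctla4, Lag3, Tigit, Cd274, Pdcd1lg2 and Cd86. Extracranial tumors came first for Havcr2, Myc CNS tumors for Cd80 through 1 library, and SHH CNS tumors for Cd276. Neighbours in that order differed by edgeR in 6 of the 40 steps. These were grafts over extracranial tumors for Tigit and Pdcd1lg2, Myc CNS over SHH CNS tumors for Tigit and Cd86, extracranial over SHH CNS tumors for Cd274, and brain over Myc CNS tumors for Cd276. The other neighbours did not pass the test, which does not show that their levels were alike.

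Other checkpoint and costimulation receptors were counted as a list of 15. Against brain, 12 were higher in grafts, 11 in extracranial tumors, 8 in Myc CNS tumors and 1 in SHH CNS tumors by edgeR, and none was lower. Their median log2 fold change against brain was 5.52 in grafts, 2.95 in extracranial, 2.61 in Myc CNS and 0.27 in SHH CNS tumors, beside the medians of all genes given above. The 1 in SHH CNS tumors was Vsir, which encodes the checkpoint VISTA of myeloid cells. Vsir had 248 to 283 CPM in grafts, 109 to 350 CPM in extracranial tumors, 73.9 to 233 CPM in Myc CNS tumors, 36.3 to 89.7 CPM in SHH CNS tumors and 6.02 to 6.79 CPM in brain. It was higher in SHH CNS tumors than in brain by 3.14 ± 0.48 (adjusted p = 0.00603) and in grafts by 5.38 ± 0.54 (adjusted p = 5.23e-06). Icos, a costimulatory receptor of activated T cells, had 2.08 to 4.75 CPM in grafts and 0.175 to 0.204 CPM in brain. Cd200r1, an inhibitory receptor of myeloid cells, was one of 4 receptors higher in grafts than in Myc CNS tumors, with 17.7 to 29.1 CPM against 1.93 to 4.24 CPM, and the others were Cd28, Cd27 and Cd160. Cd200r1 and Cd160 were also the 2 called in grafts against extracranial tumors. Sirpa, which receives the inhibitory signal of CD47, had 562 to 607 CPM in grafts and 104 to 129.7 CPM in brain (2.30 ± 0.51, adjusted p = 0.0018).

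Of 15 other ligands, 13 could be tested, and Vtcn1 and Cd70 had too few counts. Against brain, 8 were higher and 2 lower in grafts, 6 higher and 1 lower in extracranial tumors, 8 higher and 1 lower in Myc CNS tumors, and 0 either way in SHH CNS tumors, with medians of 3.43, 2.16, 1.84 and -0.32. In that last comparison 1 ligand, Icosl, was under an unadjusted p of 0.05 by edgeR, the one tool counted for this list. Again, no share of all genes is given at that threshold. Pvr, the ligand of TIGIT, had 109 to 162 CPM in grafts, 34.5 to 95.7 CPM in extracranial tumors, 44.7 to 196 CPM in Myc CNS tumors, 8.03 to 11.7 CPM in SHH CNS tumors and 10.9 to 14.7 CPM in brain. It was higher than in brain by 3.43 ± 0.50 in grafts (adjusted p = 8.3e-05) and by 3.00 ± 0.48 in Myc CNS tumors (0.000185). Lgals9, which encodes galectin-9, a ligand of TIM-3, had 127 to 168 CPM in grafts, 12.1 to 191 CPM in extracranial tumors, 40.7 to 76.6 CPM in Myc CNS tumors, 11.2 to 11.7 CPM in SHH CNS tumors and 6.34 to 15.9 CPM in brain. Cd40, an activating receptor of antigen-presenting cells listed with the ligands, was the only one of the 13 called in grafts against Myc CNS tumors, with 29.1 to 35.0 CPM against 5.36 to 8.25 CPM. Cd200, a ligand of CD200R that neurons make, was lower in the 3 tumor groups with calls, at 33.3 to 37.6 CPM in grafts against 283 to 319 CPM in brain (-3.09 ± 0.95, adjusted p = 0.0138). Cd47, the ligand of SIRP-alpha, reached 719 CPM in Myc CNS tumor 2, against 75.0 to 88.0 CPM in the other Myc CNS tumors and 89.3 to 118 CPM in brain.

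Genes that carry the interferon gamma signal or stabilise PD-L1 were counted as a list of 12. Against brain, 8 were higher in grafts, 7 higher and 1 lower in extracranial tumors, 8 higher in Myc CNS tumors and 1 higher in SHH CNS tumors, with medians of 2.24, 1.93, 1.74 and 0.32. The one lower was Ifng, at 0 in all 4 extracranial tumors, a call at the limit of detection between libraries of unequal depth. Extracranial libraries held 22491998 to 52956537 counts, against 103095016 to 130835711 in brain. Irf1, a transcription factor induced by interferon gamma, had 195 to 230.5 CPM in grafts, 38.3 to 139 CPM in extracranial tumors, 51.8 to 89.5 CPM in Myc CNS tumors, 7.22 to 9.60 CPM in SHH CNS tumors and 1.92 to 5.92 CPM in brain. It was higher than in brain by 6.01 ± 0.55 in grafts (adjusted p = 3.28e-06), 4.79 ± 0.51 in extracranial tumors (9.63e-06) and 4.54 ± 0.51 in Myc CNS tumors (1.39e-05). The cytokine gene Ifng itself had 0.281, 0.847 and 0.741 CPM in grafts and at most 0.0546 CPM in any other library, and it was higher in grafts than in Myc CNS tumors by 3.83 ± 0.66 (adjusted p = 0.0181). Cmtm6, whose product keeps PD-L1 at the cell surface, had 116 to 144 CPM in grafts, 72.3 to 119 CPM in extracranial tumors, 61.1 to 112 CPM in Myc CNS tumors, 27.1 to 36.1 CPM in SHH CNS tumors and 21.2 to 36.8 CPM in brain.

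The genes whose levels ran most like those of a member over the 14 tumors were found by Pearson's r of log2(CPM + 1) among 14512 genes, as a description of libraries that share groups and depth. Cd86 ran with Pilrb2 (r = 0.99), Tspan32 (0.98) and Il21r (0.98), and these stayed at 0.92 to 0.96 after the group means were removed. For the other members the values after that removal ran from 0.58 (Lag3 with Usp12) to 0.95 (Pdcd1lg2 with Cldn9). They were 0.72 to 0.80 for the 3 genes nearest to Cd274. The r values below are those before that removal. Pdcd1 ran with Sla2 and Tnfrsf18 (0.94 each), and Tigit with Mmp27, Fasl and Ubash3a (0.98 each). Pdcd1lg2 ran with Slamf1 (0.99), Cldn9 (0.98) and Clec1b (0.98), with rank correlations of 0.72, 0.40 and 0.70, and graft 2 held the highest Pdcd1lg2 level. Cd274 ran with Ctsb (0.97), Mbd2 (0.96) and Sde2 (0.96). The nearest genes to Ctla4 were Nampt, Zfp683 and Bcl2l14 (0.91 to 0.94), to Lag3 Ak8, Usp12 and Cubn (0.87 to 0.89), and to Havcr2 Spns3, Psenen and Ndufa2 (0.87 to 0.90). Cd80 ran with Mcoln2, Gyg and Prf1 (0.89 to 0.90) and Cd276 with Kmt5b, Fam149b and Pbld2 (0.90 to 0.92).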

How the data were processed

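Polyadenylated RNA was sequenced from 17 samples. Per the labels' protocols, miRNeasy-extracted RNA was DNase-treated before preparation of Illumina TruSeq Stranded mRNA libraries. Reads were aligned with STAR 2.5.3a to mm10, per the submitters' processing notes, and the counting tool and strand setting are not given in the sources used here. The authors deposited whole-number read counts per Ensembl gene, without normalization. Symbols and exon lengths came from the reference annotation, which matched 50376 of 50600 gene IDs.

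Counts of all libraries were fitted in edgeR 4.0.16 (R 4.3.3) with TMM scaling, 1 mean per group and the quasi-likelihood test, after filterByExpr with a minimum count of 10, which kept 21494 genes. P-values were adjusted by Benjamini-Hochberg over all of them. CPM used TMM library sizes. The alternatives were DESeq2 1.42.0, limma 3.58.1 voom with sample weights, RLE size factors, no filter, the 2 compared groups alone, the title number as a block, the files' leading number as a covariate, each library left out, and Healthy brain 1 with SHH CNS tumor 1 left out. Scripts were tested on simulated data. Tables and plots used Python 3.11.15, pandas 2.3.3, numpy 2.4.6 and matplotlib 3.10.9. Counts of libraries of 1 group differed by 65.3 to 885.3 chi-square units per gene, so none was a copy. Count totals limit precision to counting error for low genes, and library spread exceeds it elsewhere.

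Named genes were the 10 members, up to 4 genes per further list and comparison with the smallest adjusted p, a fixed set of pathway genes, and the 3 genes closest to each member by correlation. Likeness used log2(CPM + 1) and genes with a group mean of at least 1 CPM. The members and lists were chosen with earlier results of these data known. Results for some genes that this rule names are not reported here.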

Additional observations from a re-analysis of the deposited data

Results flagged for a closer look

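In 3 of 20 cases, each 1 member in 1 of the 2 groups of 4 libraries, the CPM of 1 library lay apart from the others. The cutoff sets about 1 in 20 cases apart by chance only for normal values, which was not checked for CPM. The cases also share libraries, so the 3 are a description with no chance rate. Havcr2 was 70.1 CPM in extracranial tumor 1, against 9.36 to 17.1 CPM in the other extracranial tumors. The same library had the highest macrophage marker sum of its group, 5158 CPM, and the highest dendritic cell marker sum, 196 CPM. Cd274 was 115.8 CPM in Myc CNS tumor 2, against 20.3 to 27.6 CPM in the other Myc CNS tumors. Near it, Jak2 was 67.5 CPM in that library and 51.0 to 63.9 CPM in the others, and Pdcd1lg2 was 0.0521 CPM against 0.219 to 0.269 CPM. Cd80 was 69.2 CPM in Myc CNS tumor 3, against 0.990 to 1.53 CPM in the other Myc CNS tumors. Of its neighbours, Pla1a was 12.1 CPM in that library against 0.984 to 1.30 CPM, Adprh 98.1 CPM against 45.8 to 62.8 CPM, and Timmdc1 21.5 CPM against 17.2 to 23.3 CPM. Others were lowest in that library, such as Gsk3b (105.9 against 117.6 to 174.5 CPM) and Poglut1 (56.6 against 57.2 to 83.0 CPM). These neighbours were chosen after their values were seen, and their part in the result was not tested.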

How the results depend on the processing

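Of 63 recomputed fold changes, none that was called reversed. The members called without 1 library numbered 9 to 10 in grafts, 5 to 7 in extracranial tumors, 6 to 8 in Myc CNS tumors and 0 to 1 in SHH CNS tumors against brain. Against SHH CNS tumors they numbered 8 to 9 in grafts, 3 to 7 in extracranial tumors and 3 to 7 in Myc CNS tumors. They numbered 1 to 4 in grafts against Myc CNS tumors, 1 to 5 in grafts against extracranial tumors and 0 to 0 in extracranial against Myc CNS tumors. The shares over all genes in these runs without 1 library are not given. These counts therefore do not show whether the members or all genes moved. DESeq2 called 2 in SHH CNS tumors against brain, 2 in extracranial against Myc CNS tumors, 6 in grafts against Myc CNS tumors and 6 in grafts against extracranial tumors. limma voom called 3 in SHH CNS tumors against brain, 3 in extracranial against SHH CNS tumors (41.2% of all genes), 6 in grafts against Myc CNS tumors and 6 in grafts against extracranial tumors. With the compared groups alone, 2 were called in SHH CNS tumors against brain (5.82% of all genes) and 0 in grafts against extracranial tumors (0.635%). With the leading file number as a covariate, 4 were called in Myc CNS against SHH CNS tumors (28.4% of all genes), 1 in extracranial against SHH CNS tumors (9.67%) and 0 in grafts against extracranial tumors (0.014%, or 3 genes). Without Healthy brain 1 and SHH CNS tumor 1, 4 were called in Myc CNS (30.3% of all genes) and 3 in extracranial tumors (28%) against SHH CNS tumors. The cause was not tested. Of the 100 pairs of member and comparison, uncalled ones were recomputed only if they lay near the threshold or were picked by name. The 3 that changed sign were those picked by name, so this count does not cover the uncalled results left out. Cd274 in extracranial against Myc CNS tumors was 0.17 without Myc CNS tumor 2, in a range of -1.03 to 0.17 without 1 library. Cd80 in extracranial against Myc CNS tumors was 0.88 with the file number and -3.41 to 0.94 without 1 library, the last without Myc CNS tumor 3. Cd80 in grafts against Myc CNS tumors was 0.70 with limma voom and -1.53 to 2.82 without 1 library, the last without Myc CNS tumor 3. Samples with the same title number did not deviate together (r from -0.167 to 0.166, median 0.0145, 31 pairs, and 6 of 17 libraries closest to their own number). With that number as a replicate block, 1 member was called in grafts against extracranial tumors, where the share over all genes is not given. In that run Tigit lost its calls in grafts against Myc CNS tumors (adjusted p = 0.0743) and extracranial tumors (0.0591). Ctla4 passed in Myc CNS tumors against brain (0.0417). RLE size factors moved the median of all genes by -0.0999 to 0.0228 and changed no call of a member. Over all genes the tools differed more: SHH CNS tumors against brain had 940 calls by edgeR, 2875 by DESeq2 and 7559 by limma voom. Low counts limit Pdcd1, Tigit and Ctla4 in SHH CNS tumors and brain.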
